A study of Mus musculus with 27 samples.

Results

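The collagens, laminins, tissue inhibitors of metalloproteases (Timp) and Adamts proteases of the extracellular matrix were examined in the liver of 2-week-old C57BL/6J mice whose mothers had received a Western-style high fat diet (WSD) or a low fat diet (LFD). Members were chosen by symbol: collagen chain genes (Col, a number, a and a number), and genes whose symbol begins with Lama, Lamb, Lamc, Timp or Adamts and a digit. Of 18820 genes with a probe set of their own on the array, 74 met this rule. They were 11 fibrillar collagen chains, 8 chains of basement membrane collagens (types IV, XV and XVIII), 6 chains of type VI collagen, 17 other collagen chains, 10 laminin chains, 4 Timp genes and 18 Adamts genes. Adamts2, Col7a1 and Col9a3, which also meet the rule, had no probe set that named them alone and were not analysed here.

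The matrix around liver cells is sparse. Fibrillar collagens form the fibres of portal tracts and vessel walls, whereas type IV collagen and the laminins, trimers of an alpha, a beta and a gamma chain, build the sheets beneath vessels and bile ducts and the looser matrix along the sinusoids. Stellate cells and portal fibroblasts make most liver collagen, Adamts proteases trim procollagens, proteoglycans and microfibrils, and Timp proteins inhibit metalloproteases.

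The study asked how the mother's diet affects her young offspring, and whether sons and daughters differ in this. Liver RNA of 27 pups was hybridized to Mouse Gene ST arrays of Affymetrix, with each pup on its own array. The groups were 6 male pups of WSD dams (m-WS) and 6 male pups of LFD dams (m-LF), and 6 female pups of WSD dams (f-WS) and 9 female pups of LFD dams (f-LF). WSD held 45% of its energy as fat and 196.5 mg cholesterol per kg, and LFD 10% and 18.0 mg per kg. Dams ate their diet for 6 weeks before mating and throughout pregnancy and lactation, all sires were on control diet, litters were set to between 5 and 7 pups, and the pups were taken while still suckling.

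Levels below are log2 signals per probe set, and differences are WSD minus LFD on the log2 scale. A gene was called changed at p of at most 0.01 in limma, the threshold of the methods, and adjusted p-values (Benjamini-Hochberg) cover all 10810 genes tested per comparison. Levels of different genes cannot be set against each other on this array. In bulk liver, fewer cells of a type and less RNA per cell cannot be told apart. The libraries labelled m-WS1 and m-LF6 stood apart from the other males. Their signal of Xist, the RNA of the inactive X chromosome, was 7.92 in m-WS1 and 9.30 in m-LF6, against at most 4.50 in the other 10 males and at least 11.67 in females. Each array name carries a number (39, 40 or 48 on WSD, 37, 49 or 50 on LFD) whose meaning the labels do not give. Every number lay within 1 maternal diet, so what it marks and the diet cannot be told apart, and pups of 1 number may not be independent. Hepatocyte markers were bright throughout, with a mean over 4 of them between 12.92 and 13.09 in every pup.

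Promoter sequences of 3 of the 5 members that changed in males are shown first, since Col6a2 rose whereas Adamts3 and Col13a1 fell. The RefSeq promoter table (GRCm38.p6) held a promoter for 52 of the 74 members, but none for Lama4 and Adamts10. Each line gives the 250 bases before the transcription start listed there, 5′ to 3′ on the gene's own strand (minus in all 3), with motif matches in capitals. The stretches lie at chr10:76623405-76623654 (Col6a2), chr5:89883335-89883584 (Adamts3) and chr10:61979109-61979358 (Col13a1). The annotated genes reach upstream of the listed starts, to bases 76623630, 89883668 and 61979206 in the same order. All of the Adamts3 stretch and part of the other 2 thus lie within the annotated gene and may be transcribed from another start.
Col6a2: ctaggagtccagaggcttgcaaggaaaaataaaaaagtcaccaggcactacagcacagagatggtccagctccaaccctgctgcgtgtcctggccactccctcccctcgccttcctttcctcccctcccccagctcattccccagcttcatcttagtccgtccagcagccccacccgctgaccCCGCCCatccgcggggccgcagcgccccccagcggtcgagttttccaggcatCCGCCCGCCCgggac
Adamts3: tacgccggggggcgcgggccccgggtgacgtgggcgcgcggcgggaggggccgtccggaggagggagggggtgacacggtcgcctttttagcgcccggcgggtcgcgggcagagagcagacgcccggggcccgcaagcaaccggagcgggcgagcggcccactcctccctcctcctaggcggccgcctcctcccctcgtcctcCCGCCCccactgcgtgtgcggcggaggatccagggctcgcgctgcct
Col13a1: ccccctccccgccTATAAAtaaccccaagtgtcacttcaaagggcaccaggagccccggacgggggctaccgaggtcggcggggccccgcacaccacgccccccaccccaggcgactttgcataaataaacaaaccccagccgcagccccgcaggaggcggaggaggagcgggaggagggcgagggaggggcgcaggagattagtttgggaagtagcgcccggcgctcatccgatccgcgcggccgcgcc
The motifs searched on both strands were the TATA box TATAAA, the CCAAT box, the GC box GGGCGG, the AP-1 motif TGANTCA and the Smad motif CAGACA, over 250 bases before and 50 after the start. The Col6a2 promoter held GGGCGG 3 times on the other strand, with the last 2 of them overlapping, and the Adamts3 promoter held it 1 time on the other strand. TATAAA stood in the Col13a1 promoter from base -237 to -232. GGGCGG was found in 35.9% and TATAAA in 14.2% of all 27025 promoters in the table, CCAAT in 37.9%, TGANTCA in 7.93% and CAGACA in 21.0%. GC content over the 250 bases was 64.4% for Col6a2, 78.0% for Adamts3 and 68.8% for Col13a1, and the median over the 300 bases of all promoters was 52.7%.

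Of the 74 members, 67 reached an intensity of 20 on 4 or more arrays, and 58 of these also had an interquartile range (IQR) of 0.1 or more and were tested. The other 9 of the 67 were too flat across pups (Adamts4, Adamts12, Adamts13, Col4a2, Col4a4, Col9a1, Col11a1, Col11a2 and Col16a1), and 7 members were too dim (Adamts18, Adamts19, Adamts20, Col4a6, Col8a2, Col10a1 and Col19a1). In males, 5 of the 58 members (8.62%) changed with maternal WSD, beside 5.62% of all genes tested. Lama4, Col6a2 and Adamts10 rose (3 members, beside 3.02% of all genes), whereas Adamts3 and Col13a1 fell (2 members, beside 2.6%). Adamts3 was the only member with an adjusted p under 0.05, beside 0.731% of all genes. At an unadjusted p of at most 0.05 there were 14 members, 7 higher and 7 lower in m-WS pups, beside 14.3% of all genes. Rises made up 3 of the 5 calls, but 2 of 5 with each array centred on its median and 3 of 6 after a repeated quantile normalization. Over all genes called in males, 53.8% rose, and 42.1% and 48.9% did so under these scalings.

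In females, 0 of the 58 members changed by limma, beside 5.19% of all genes tested (3.6% higher, 1.59% lower), and the IBMT method also called 0. The count at an unadjusted p of at most 0.05 was 2, Adamts6 and Col17a1, beside 14.5% of all genes, and the smallest adjusted p was 0.223. The male groups did not overlap for 1 member that was higher in m-WS pups, Lama4, and 0 that were lower, beside 0.851% and 0.537% of all genes, and the female groups overlapped for all 58, beside 0.342% of genes higher and 0.0925% lower without overlap. Differences lay below 0 for 50% of the members in males and 55.2% in females, beside 47.2% and 43.9% of all genes. The median log2 difference of the members was 0.00 in males and -0.02 in females, beside 0.01 in both sexes for all genes tested. Differences ran between -0.32 and 0.45 in males and between -0.16 and 0.23 in females. The sign was the same in both sexes for 29 of the 58 members and opposite for the other 29. A difference between the sexes in the change itself was found for 3 members (5.17%), Lama4, Adamts10 and Col6a2, beside 2.5% of all genes tested. For all 3 the change was higher in males (1.17% of all genes, with 1.32% lower), and the smallest adjusted p was 0.366. At an unadjusted p of at most 0.05 there were 6 members, these 3 and Lama3, Adamts3 and Adamts5, beside 9.81% of all genes.

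**Figure D1:**
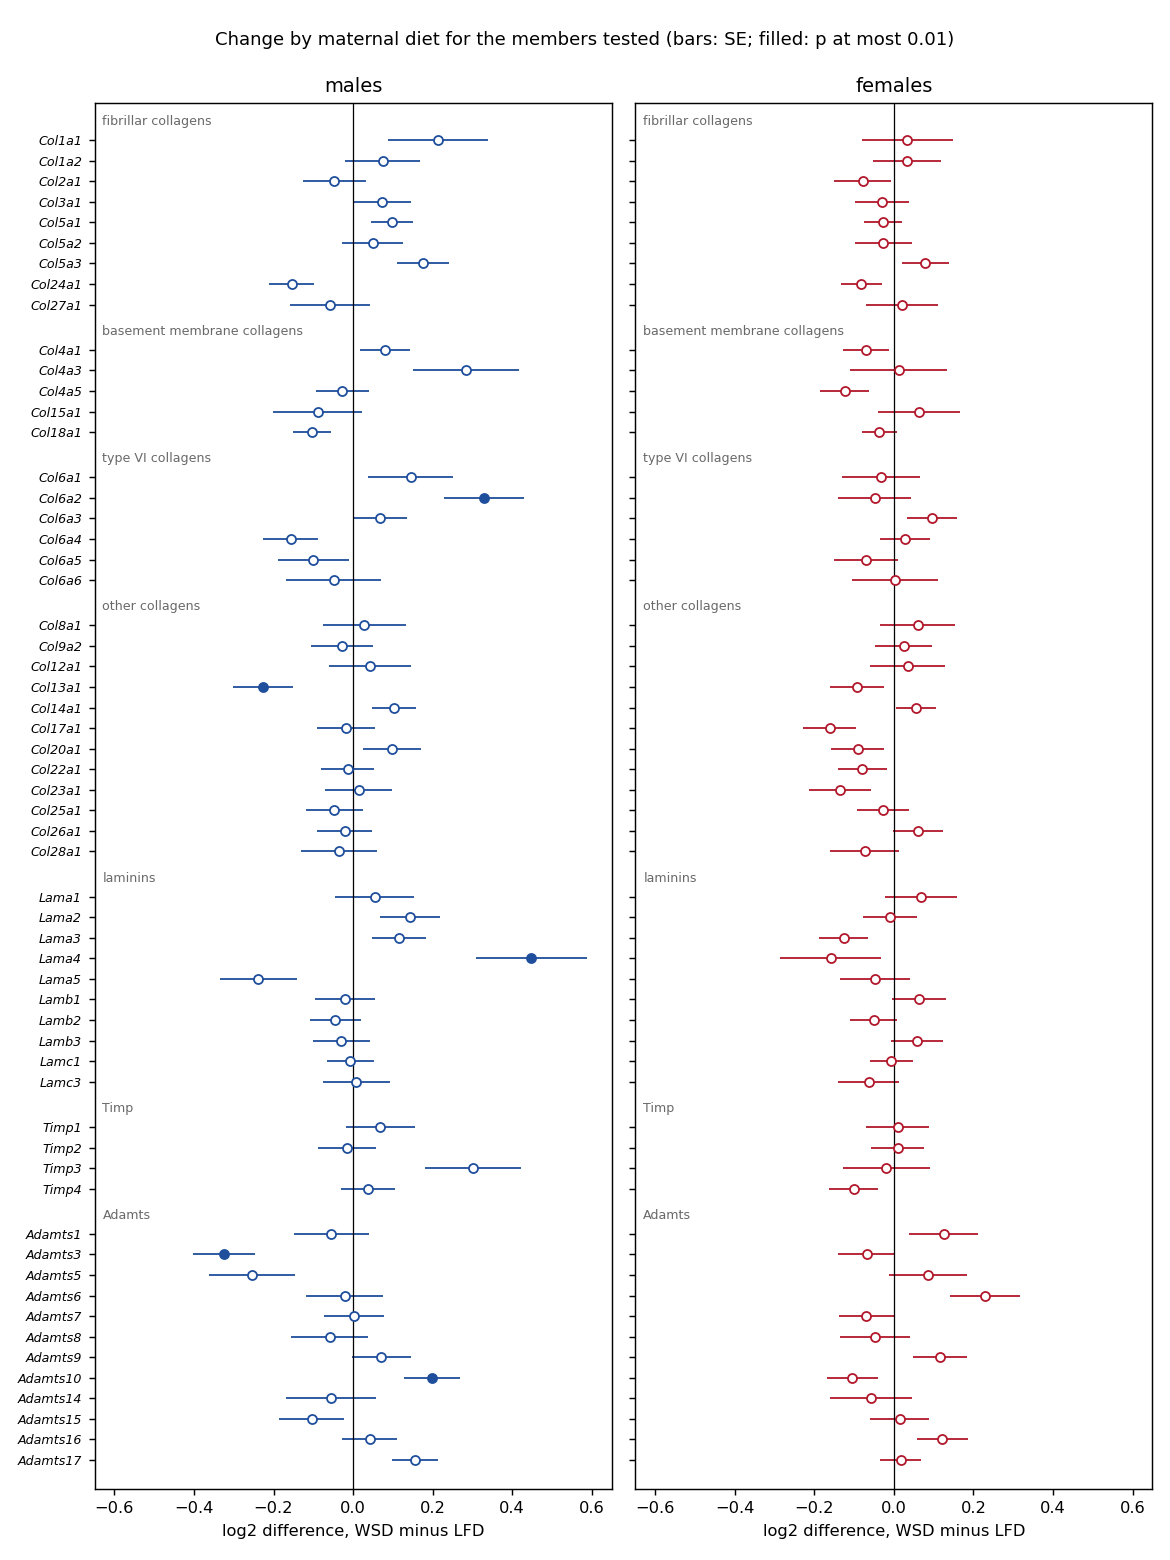
Log2 difference, WSD minus LFD (x axis), for the 58 members tested, by family (y axis), in males (left) and females (right); points are limma estimates, bars are standard errors and filled points have p of at most 0.01. The 5 filled points are all in males (Col6a2, Col13a1, Lama4, Adamts3 and Adamts10), and most other points lie within 0.2 of 0.

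Among the laminins, 1 of 10 tested chains changed in males and 0 in females. Lama4, which encodes an alpha chain of laminins in vessel walls, rose 1.36-fold in m-WS pups. Its lowest, median and highest log2 signals were 6.75, 6.87 and 7.10 in m-WS pups, against 6.27, 6.41 and 6.62 in m-LF pups. The ranges of the male groups did not overlap. The difference was 0.45 ± 0.14 (SE; limma adjusted p = 0.109). In females, the corresponding signals were 6.17, 6.39 and 6.98 in f-WS pups, against 6.30, 6.56 and 7.09 in f-LF pups. The female groups overlapped throughout, and their difference was -0.16 ± 0.13 (limma adjusted p = 0.622). The change in males minus that in females was 0.61 ± 0.19 (limma adjusted p = 0.366).

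By array number, the 4 males of number 48 had Lama4 signals between 6.75 and 6.91 and the 2 males of number 40 between 6.85 and 7.10, so both numbers lay above all m-LF pups. The 2 f-WS pups of number 48 stood at 6.72 and 6.98, above the 4 other f-WS pups, which reached at most 6.42. In f-LF pups, high and low signals occurred within each of the 3 numbers, with ranges of 6.32 to 7.03 for number 37, 6.32 to 7.08 for number 49 and 6.30 to 7.09 for number 50. Without m-LF6 and m-WS1, the male difference was 0.44 (limma adjusted p = 0.133). With the array number as a random block it was 0.42 and no longer passed p of 0.01, and likewise without number 37 (0.44), 40 (0.41), 48 (0.53) or 49 (0.42). The difference between the sexes was 0.49 without number 39, 0.51 without number 40 and 0.58 without number 49, and no longer passed p of 0.01 in these 3 fits.

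The remaining alpha chains gave values without a call. Lama5, the alpha chain of many adult basement membranes, ran 5.82, 5.98 and 6.08 in m-WS pups (lowest, median, highest), against 5.92, 6.20 and 6.49 in m-LF pups. The groups overlapped and the difference was -0.24 ± 0.10 (limma adjusted p = 0.225), opposite in sign to that of Lama4. Lama3, a chain of epithelial laminins, differed by 0.12 in males and by -0.13 in females (limma adjusted p = 0.460 and 0.345), and these differences were apart by 0.24 ± 0.09. Lama2, found in muscle and around stellate cells, differed by 0.14 in males and -0.01 in females. Lamc1 and Lamb1, the gamma and beta chains that most laminins share, differed by -0.01 and -0.02 in males and by -0.01 and 0.06 in females, with standard errors of at most 0.07. Lama1, Lamb2, Lamb3 and Lamc3 differed by at most 0.07 in either direction and sex. None of these chains passed the test in either sex.

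**Figure D2:**
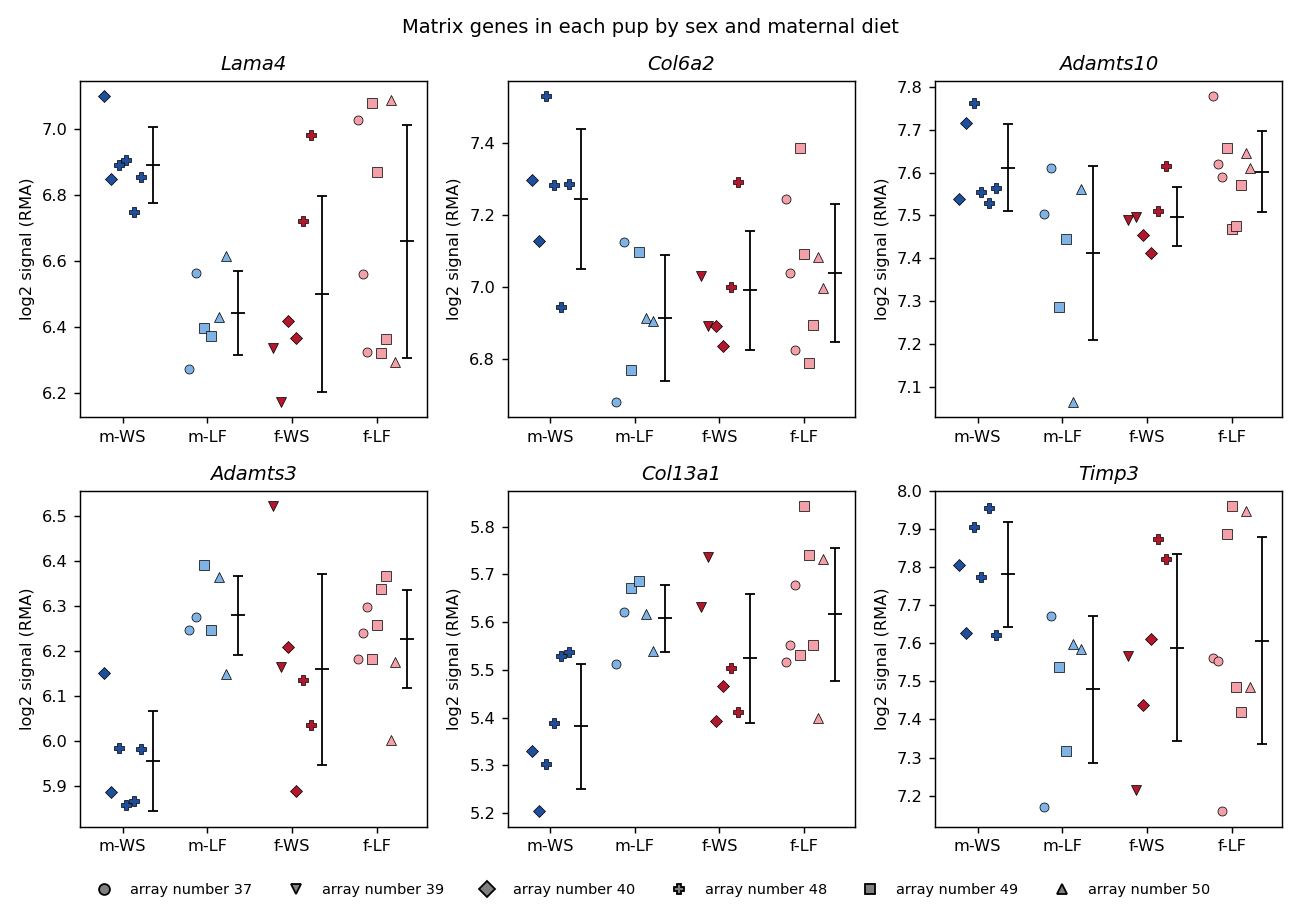
Log2 signal (y axis) of the 5 members that changed in males and of Timp3 in each of the 27 pups, by sex and maternal diet (x axis); marker shapes give the number in the array name, and bars the mean ± SD of each group. The m-WS pups lie above all m-LF pups for Lama4 (6.75 or more, against 6.62 or less), and the female groups overlap in all 6 panels.

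Among the type VI collagens, chains of a beaded filament that links cells to the fibrillar matrix, 1 of 6 tested members rose in males. Col6a2 had its lowest, median and highest log2 signals at 6.95, 7.28 and 7.53 in m-WS pups, against 6.68, 6.91 and 7.12 in m-LF pups. All but 1 of the m-WS pups, m-WS5, lay above the highest m-LF pup. The difference was 0.33 ± 0.10, a 1.26-fold rise (limma adjusted p = 0.102). In females the signals were 6.84, 6.95 and 7.29 in f-WS pups, against 6.79, 7.04 and 7.39 in f-LF pups, a difference of -0.05 ± 0.09. The change in males minus that in females was 0.38 ± 0.14 (limma adjusted p = 0.393).

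The male call of Col6a2 was lost without m-LF1 (0.28), without m-WS3 (0.27), without number 48 (0.30) and without number 50 (0.33). Its difference between the sexes was nearer the threshold: it no longer passed p of 0.01 when any 1 of 19 pups was left out, with values of 0.32 to 0.39 without m-LF1, 3, 5 or 6, m-WS1, 3, 4 or 6, f-LF1, 2, 4, 5, 8 or 9, or f-WS1, 2, 3, 4 or 5, and likewise without both m-LF6 and m-WS1 (0.37). Nor did it pass without any 1 of the 6 array numbers (0.33 to 0.42), with the number as a random block (0.37), with the prefix of the array name as a block (0.37) or with array weights (0.33). Without those 2 libraries the male difference was 0.32 (limma adjusted p = 0.147). The partner chains of the same filament did not pass. Col6a1 differed by 0.14 ± 0.11 in males (limma adjusted p = 0.590) and -0.03 ± 0.10 in females, and Col6a3 by 0.07 ± 0.07 and 0.10 ± 0.06. Of the chains that can stand in for the third one, Col6a4 had 4.11, 4.20 and 4.26 in m-WS pups, against 4.18, 4.33 and 4.49 in m-LF pups (difference -0.16 ± 0.07, limma adjusted p = 0.278), and reached an intensity of 20 on only 7 of 27 arrays. Col6a5 and Col6a6 differed by -0.10 and -0.05 in males and by -0.07 and 0.00 in females.

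In the Adamts family, 1 of 12 tested members rose and 1 fell in males, and 0 changed in females. Adamts3, a protease that removes the amino-terminal propeptide of procollagens and takes part in the activation of the lymphatic growth factor VEGF-C, fell in m-WS pups, to 0.799 times its level in m-LF pups. Its lowest, median and highest log2 signals were 5.86, 5.93 and 6.15 in m-WS pups, against 6.15, 6.26 and 6.39 in m-LF pups. The groups met only at their edges, where m-WS1 and m-LF6 both stood at 6.15. The difference was -0.32 ± 0.08 (limma adjusted p = 0.0437), and without those 2 libraries -0.39 (limma adjusted p = 0.0152). The signals were 5.89, 6.15 and 6.52 in f-WS pups, against 6.00, 6.24 and 6.37 in f-LF pups. This female difference was -0.07 ± 0.07 (limma adjusted p = 0.726), and the change in males minus that in females was -0.26 ± 0.11 (limma adjusted p = 0.418). Leaving out any 1 pup kept the male difference between -0.36 and -0.30 and within p of 0.01, although its limma adjusted p ranged from 0.0185 to 0.111, whereas without array number 48 it was -0.26 and no longer passed.

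Adamts3 was represented by 16 probe sets, and the values above are those of the brightest. In males, 15 of the 16 were lower in m-WS pups, with differences between -0.32 and 0.03 (median -0.13), and 3 fell at p of at most 0.01 while 0 rose. The third brightest had the value above 0. In females, 14 were lower in f-WS pups, with differences between -0.15 and 0.20 (median -0.04), and 0 changed. Of the 10 probe sets with an intensity of at least 20 on every array, 9 were lower in m-WS pups. All 16 probe sets read the same RNA of the same pups and are not independent of each other. Averaged over its probe sets, Adamts3 differed by -0.15 in males (limma adjusted p = 0.191) and no longer passed p of 0.01.

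**Figure D3:**
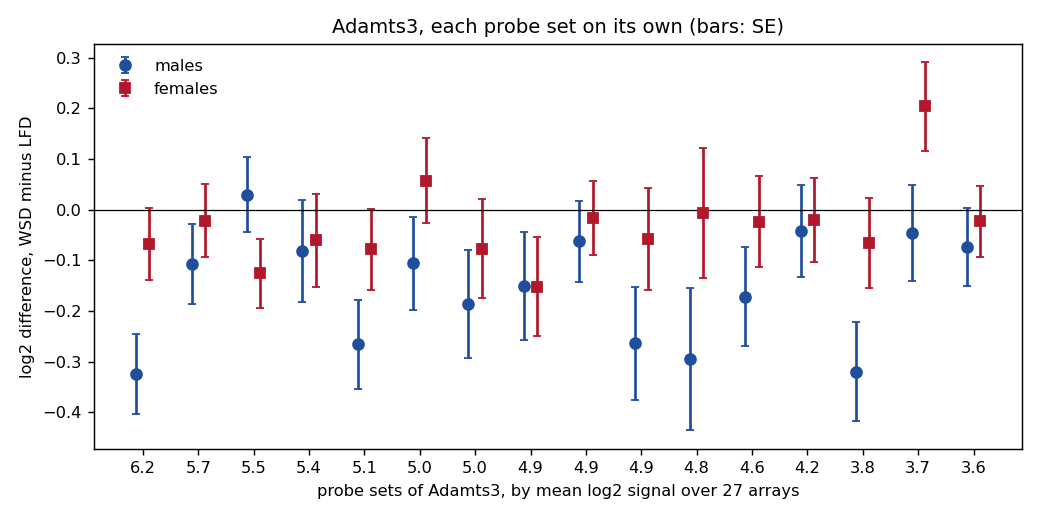
Log2 difference, WSD minus LFD (y axis), of each of the 16 probe sets of Adamts3, ordered by mean log2 signal over the 27 arrays (x axis), in males (circles) and females (squares); bars are standard errors of limma. All male points but 1 lie below 0, between -0.32 and 0.03, and the female points between -0.15 and 0.20.

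Adamts10, a secreted protease that binds fibrillin microfibrils, rose 1.15-fold in males. The lowest, median and highest signals were 7.53, 7.56 and 7.76 in m-WS pups, against 7.06, 7.47 and 7.61 in m-LF pups. The groups overlapped, and a single m-LF pup, m-LF5, stood at the low end with 7.06. The difference was 0.20 ± 0.07 (limma adjusted p = 0.170). In females it ran the other way, with 7.41, 7.49 and 7.62 in f-WS pups, against 7.47, 7.61 and 7.78 in f-LF pups (difference -0.10 ± 0.06, limma adjusted p = 0.473). The change in males minus that in females was 0.30 ± 0.10 (limma adjusted p = 0.366), and it passed p of 0.01 when any 1 pup was left out (0.23 to 0.34).

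The male call of Adamts10 on its own was less stable. It was lost without m-LF5 (0.13), m-LF3 (0.17), m-LF4 (0.21), m-WS2 (0.18), m-WS3 (0.17) or m-WS6 (0.21), and by a small margin (0.20) without f-LF2, 3, 7 or 9 or f-WS1, 2, 3 or 5. With arrays centred on their medians it was 0.18 and did not pass, nor did it without number 39 (0.20), 40 (0.19), 48 (0.22), 49 (0.18) or 50 (0.15). It was also lost with the array number as a random block (0.20), arrays of 1 number and sex averaged (0.20), the prefix of the array name as a block (0.18), each sex fitted alone (0.20) and quantile normalization repeated (0.19). Without m-LF6 and m-WS1 it was 0.24 and passed. The difference between the sexes did not pass without number 40 (0.26), 48 (0.35) or 50 (0.25), or with arrays of 1 number and sex averaged (0.32).

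The other Adamts members gave values without a call. Adamts6, a close relative of Adamts10, had 6.79, 6.92 and 7.15 in f-WS pups, against 6.40, 6.66 and 7.07 in f-LF pups, a difference of 0.23 ± 0.09 (limma adjusted p = 0.223), and -0.02 ± 0.10 in males. Adamts5, which cleaves aggrecan and versican, had 6.67, 6.86 and 6.99 in m-WS pups, against 6.73, 7.13 and 7.39 in m-LF pups, a difference of -0.25 ± 0.11 (limma adjusted p = 0.256), and 0.09 ± 0.10 in females. Adamts17 differed by 0.16 ± 0.06 in males (limma adjusted p = 0.185) and by 0.02 ± 0.05 in females. All of these groups overlapped. Adamts9, which also cleaves versican, differed by 0.07 in males and 0.12 in females, and Adamts7, which cleaves the cartilage oligomeric matrix protein, by 0.00 and -0.07. Adamts16 differed by 0.04 in males and 0.12 in females (limma adjusted p = 0.388). Adamts1, Adamts8, Adamts14 and Adamts15 differed by at most 0.12 in either direction and sex. Adamts13, the protease of von Willebrand factor that stellate cells make, was too flat to be tested, and without the filters it differed by 0.02 in males and -0.11 in females. Adamts12, also flat, differed by 0.03 in males and -0.12 in females. Adamts18, Adamts19 and Adamts20 did not reach an intensity of 20 on any array.

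Of the other collagens, 1 of 12 tested chains fell in males and 0 changed in females. Col13a1, which encodes a transmembrane collagen of cell contacts, had its lowest, median and highest signals at 5.20, 5.36 and 5.54 in m-WS pups, against 5.51, 5.62 and 5.69 in m-LF pups. The groups overlapped through m-WS5 and m-WS6, at 5.53 and 5.54, and the m-LF pups at the low end. The difference was -0.23 ± 0.07, or 0.855 times (limma adjusted p = 0.131). Females had 5.39, 5.49 and 5.74 in the f-WS group, against 5.40, 5.55 and 5.84 in the f-LF group, a difference of -0.09 ± 0.07 of the same sign (limma adjusted p = 0.578), and the test between the sexes gave -0.13 ± 0.10 (limma adjusted p = 0.692). The male call was lost without m-LF3 (-0.21), m-LF4 (-0.21), m-WS1 (-0.22), m-WS2 (-0.19) or m-WS3 (-0.21), without number 40 (-0.17) or 49 (-0.19), and without both m-LF6 and m-WS1 (-0.23). It was also lost with the array number as a random block (-0.22) and with arrays of 1 number and sex averaged (-0.26).

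Col14a1, a fibril-associated collagen, differed by 0.10 ± 0.06 in males and 0.05 ± 0.05 in females. Col17a1, a transmembrane collagen of epithelia that reached an intensity of 20 on only 10 arrays, had 4.02, 4.24 and 4.39 in f-WS pups, against 4.20, 4.34 and 4.62 in f-LF pups. The female groups overlapped, and the difference was -0.16 ± 0.07 (limma adjusted p = 0.257). Col20a1 and Col23a1 differed by 0.10 and 0.01 in males and by -0.09 and -0.14 in females (adjusted p of at least 0.431, limma). The other 7 tested chains of this group, among them Col8a1 and Col12a1, differed by less than 0.1 in either sex.

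None of the 9 fibrillar collagen chains tested changed in either sex, at medians of 0.07 in males and -0.03 in females. Col1a1, a chain of type I collagen, had 8.35, 8.48 and 8.83 in m-WS pups, against 7.98, 8.28 and 8.78 in m-LF pups. The groups overlapped widely (difference 0.21 ± 0.13, limma adjusted p = 0.464). Its partner Col1a2 differed by 0.07 ± 0.09, and Col3a1, the single chain of type III collagen, by 0.07 ± 0.07 in males. In females these 3 genes differed by 0.03, 0.03 and -0.03. The smallest p-values of the family in males were those of Col24a1 and Col5a3. Col24a1 had 4.71, 4.75 and 4.85 in m-WS pups, against 4.80, 4.90 and 5.08 in m-LF pups (difference -0.15 ± 0.06, limma adjusted p = 0.183). Col5a3, of type V collagen, had 4.58, 4.71 and 4.97 in m-WS pups, against 4.40, 4.56 and 4.76 in m-LF pups (difference 0.18 ± 0.06, limma adjusted p = 0.185). Both pairs of groups overlapped, and in females Col24a1 differed by -0.08 and Col5a3 by 0.08. Col2a1, Col5a1, Col5a2 and Col27a1 differed by at most 0.10 in either direction and sex. Col11a2, too flat to be tested, differed without the filters by -0.13 in males and -0.11 in females.

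Basement membrane collagens likewise gave 0 calls among 5 tested chains. Col18a1, the type XVIII chain that hepatocytes make, varied little, with 10.00, 10.03 and 10.07 in m-WS pups, against 10.03, 10.12 and 10.26 in m-LF pups. Its difference was -0.10 ± 0.05 (limma adjusted p = 0.325), and -0.04 ± 0.04 in females. Col4a1, the common chain of type IV collagen, differed by 0.08 ± 0.06 in males and -0.07 ± 0.06 in females. Its neighbour and partner Col4a2, which starts beside it on the opposite strand, was too flat to be tested and differed by 0.00 in both sexes without the filters. The kidney-type chain Col4a3 had 5.62, 5.95 and 6.27 in m-WS pups, against 5.12, 5.70 and 5.95 in m-LF pups (difference 0.28 ± 0.13, limma adjusted p = 0.325), and 0.01 ± 0.12 in females. Col4a4, its neighbour on chromosome 1, was too flat to be tested and differed without the filters by 0.15 in males and -0.03 in females. Col4a5 differed by -0.12 ± 0.06 in females (limma adjusted p = 0.348) and -0.03 in males, and Col15a1 by 0.06 and -0.09.

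None of the 4 Timp genes changed. Timp3, the inhibitor that binds to the matrix and also blocks Adamts proteases, came nearest. It had 7.62, 7.79 and 7.95 in m-WS pups, against 7.17, 7.56 and 7.67 in m-LF pups. Most m-WS pups lay above every m-LF pup, but the ranges overlapped at their edges. The difference was 0.30 ± 0.12, or 1.23-fold (limma adjusted p = 0.222), and -0.02 ± 0.11 in females, where f-WS pups had 7.21, 7.59 and 7.88, against 7.16, 7.55 and 7.96 in f-LF pups. Again the 2 f-WS pups of number 48 were the highest of their group, at 7.82 and 7.88. Timp1, Timp2 and Timp4 differed by 0.07, -0.02 and 0.04 in males and by 0.01, 0.01 and -0.10 in females, with adjusted p of at least 0.467 (limma).

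Chains of several collagens deviated together across pups. Over the 27 pups, after the mean of each group was taken off, Pearson's r was 0.946 (Spearman's rho 0.924) for Col1a1 with Col1a2, 0.920 (0.927) for Col1a1 with Col3a1, 0.835 (0.864) for Col6a1 with Col6a2, 0.805 (0.804) for Col6a1 with Col6a3 and 0.682 (0.746) for Col6a2 with Col6a3. It was 0.748 (0.647) for Col4a1 with Col4a2, 0.675 (0.647) for Lamb1 with Lamc1, and 0.251 (0.235) for Col5a1 with Col5a2, which was 0.408 without the 2 pups farthest from the median. Lama4 deviated with genes outside its trimer at least as closely as with its partner chains. Its r was 0.773 (0.780) with Col6a1, 0.750 (0.739) with Timp3 and 0.704 (0.755) with Col6a2, and 0.610 (0.657) with Lamc1 and 0.585 (0.569) with Lamb1. It was 0.324 with Adamts10 and -0.334 with Adamts3, so the members that changed in males did not all deviate together within groups. Without the 2 pups farthest from the median, these values ran from 0.556 to 0.830 for Lama4 with the 5 genes above. Such pairs share array, RNA extract and cell makeup, and are given as a description.

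**Figure D4:**
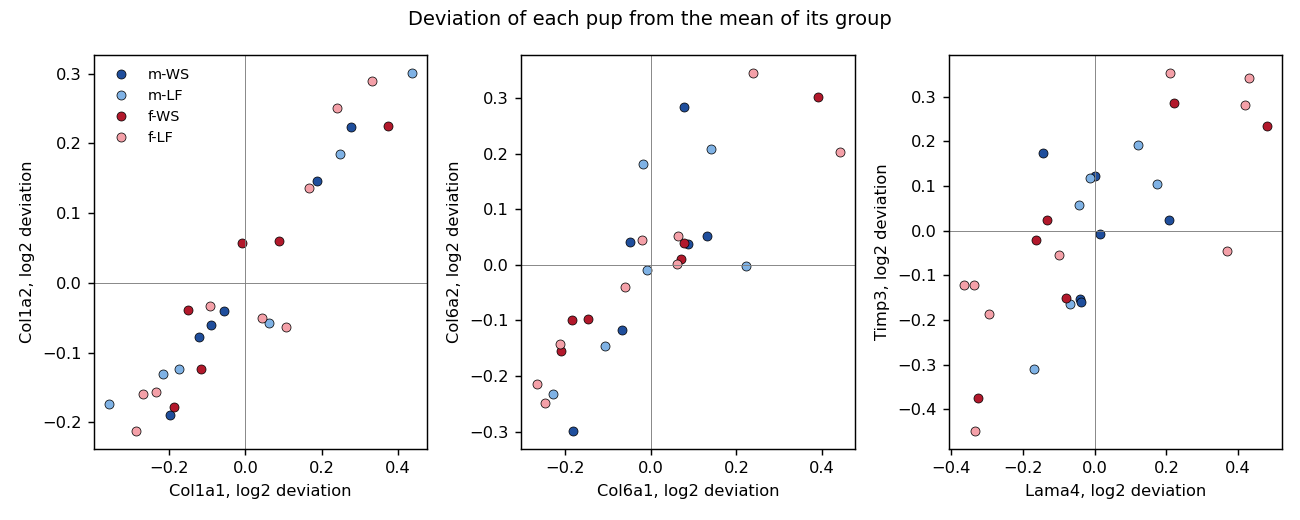
Log2 deviation of each of the 27 pups from the mean of its group, for Col1a2 against Col1a1, Col6a2 against Col6a1 and Timp3 against Lama4 (1 point per pup, coloured by group). Points lie along a rising line in each panel, with Pearson's r of 0.946, 0.835 and 0.750.

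Other genes of the matrix were read from lists of enzymes, partners and receptors, beside 5.62% of all genes called in males and 5.19% in females. Of 14 tested genes of collagen synthesis and cross-linking, enzymes and helper proteins, 0 changed in males. In females 1 rose, Pcolce2, an enhancer of procollagen processing (difference 0.38 ± 0.10, limma adjusted p = 0.0712). It differed by -0.10 in males, and the test between the sexes gave -0.48 (limma adjusted p = 0.366). Of 10 basement membrane partners, Smoc2 rose (0.26, limma adjusted p = 0.131) and Npnt, which encodes the integrin ligand nephronectin, fell (-0.44, limma adjusted p = 0.0883) in males, and 0 changed in females. Of 10 tested genes of matrix metalloproteases, counting their inhibitor Reck, 0 changed in either sex. The neutrophil collagenase Mmp8 had the largest differences, 0.83 in males and 0.77 in females (limma adjusted p = 0.203 and 0.214). Of 12 collagen and laminin receptors, 0 changed in males and Itga6, a laminin receptor chain, rose in females (0.38, limma adjusted p = 0.0852). Of 10 Adamts-like proteins and Adamts substrates, Vwf, the substrate of Adamts13, fell in males (-0.54, limma adjusted p = 0.0330), and Adamtsl4 fell in females (-0.20, limma adjusted p = 0.161).

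Markers of the cells that make matrix, and of other liver cells, were read beside these changes. Of all genes tested, 5.62% were called in males and 5.19% in females. Of 7 tested stellate cell markers, 0 rose in males, and Reln and Lrat fell (-0.22 and -0.24, limma adjusted p = 0.0745 and 0.142). In all, 5 of 7 lay below 0, whereas Pdgfrb and Ngfr lay above 0 without passing (0.22 and 0.23, limma adjusted p = 0.197 and 0.315). Gfap was under an intensity of 20 on every array. The mean of the 8 markers ranged from 7.63 to 7.79 in m-WS pups, against 7.67 to 7.94 in m-LF pups. All 7 markers of portal fibroblasts and smooth muscle lay below 0, of which Fbln2 fell (-0.30), and their mean ranged from 6.07 to 6.45 in m-WS pups, against 6.13 to 7.15 in m-LF pups. For 6 sinusoidal endothelial markers the mean ranged from 9.34 to 9.73 in m-WS pups, against 9.37 to 9.72 in m-LF pups. Of these, Clec4g fell (-0.38) and 3 of 6 lay below 0, whereas Lyve1, Oit3 and Stab1 lay above 0 (0.18, 0.07 and 0.02). For 3 markers of other endothelium the mean ranged from 8.15 to 8.37 in m-WS pups, against 8.29 to 8.67 in m-LF pups. Here Vwf fell (-0.54), whereas Pecam1 and Cdh5 lay just above 0 (0.01 and 0.02). The 4 Kupffer cell markers, the 4 mesothelial markers and 1 erythroid marker gave 0 calls. Of the 4 cholangiocyte markers, Sox9 rose (0.43), whereas the other 3 lay below 0 without passing (Krt19 -0.72, Krt7 -0.27 and Epcam -0.17, list median -0.22), and their mean ranged from 5.72 to 5.96 in m-WS pups, against 5.43 to 6.70 in m-LF pups. In contrast, 2 of 5 neutrophil markers rose, and so did all 3 tested markers of B cell precursors, whose mean, with Vpreb1 under an intensity of 20 on every array, ranged from 5.84 to 6.36 in m-WS pups, against 4.85 to 6.17 in m-LF pups. The neutrophil mean ranged from 6.51 to 7.31 in m-WS pups, against 5.41 to 7.35 in m-LF pups. In females 0 of these markers changed. The part of cell makeup in the changes of the members was not tested.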

How the data were processed

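The deposited table holds log2 signals that the authors made by RMA. It has 35556 numeric probe sets as the manufacturer laid them out, although the methods tell of a remapping to Entrez genes. The RMA version is not given in the sources used here. Of the probe sets, 21218 named a single gene, 1881 several and 12457 none. The symbols of 21185 were brought up to date through Entrez, and each of 18820 genes was represented by its probe set of highest mean over the 27 arrays. Array medians lay between 5.34 and 5.43. Genes that reached an intensity of 20 on 4 or more arrays numbered 13279, and 10810 of them had an IQR of 0.1 or more. On these, limma 3.58.1 was run under R 4.3.3 with a mean for each of the 4 groups and eBayes with an intensity trend, and p-values are 2-sided. The number of arrays limits the precision: the median SD within a group was 0.116 to 0.129. P-values measure the spread between these pups, which may share litters.

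The script was tested on simulated data. Members and gene lists were chosen with earlier results of these data known. Named were members at p of at most 0.01 in any comparison, the 2 of smallest p per family and sex, the 2 of highest mean signal per family and the 2 of smallest p per other list and sex. Further members, such as Adamts5, Adamts12, Adamts13, Adamts17, Col1a2, Col4a2, Col4a4, Col11a2 and Lama2, and the marker genes named, were picked after their values were seen. Alternatives were other filters, prior variances (IBMT among them), normalizations, array weights, each sex alone, the prefix, number and replicate number of the array labels, left-out pups and numbers, and other probe sets. Figures were drawn with matplotlib 3.10.9. Body weight, plasma lipid and PCR measurements were not analysed here.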

Additional observations from a re-analysis of the deposited data

Results flagged for a closer look

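By the test of the difference itself, the change with maternal WSD differed between the sexes at p of at most 0.01 for 3 members (5.17%). Beside them stood 2.5% of all genes tested, and 0 of all genes had an adjusted p under 0.05. The change in males minus that in females was 0.61 for Lama4, 0.30 for Adamts10 and 0.38 for Col6a2, with limma adjusted p of 0.366, 0.366 and 0.393. That of Col6a2 no longer passed p of 0.01 under 30 of 46 alternatives. Adamts16 had 1 pup far from the others of its group, f-LF8 at 4.90, where the other f-LF pups lay between 4.35 and 4.62. This was the only pup set apart in 132 groups of the named members, and chance alone sets apart about 1 in 20 groups.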

How the results depend on the processing

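The count of changed members was 5 in males, 0 in females and 3 for the difference between the sexes. In males it was 8 with the intensity filter alone, 8 without the intensity trend, 10 with array weights, 2 with the array number as a random block, 3 with arrays of 1 number and sex averaged, and 2, 3, 3 and 8 without numbers 40, 48, 49 and 50. The share of all genes called in males, 5.62% at first, moved too: in the same order it was 5.14%, 5.42%, 7.5%, 3.9%, 2.24%, 4%, 3%, 3.23% and 8.93%. Leaving out each pup gave 2 (without m-WS3, 4.53% of all genes) to 9 (without m-LF6, 7.51%), with 3 without m-WS2 (4.85%). In females it was 1 with array weights (6.47% of all genes, beside 5.19% at first), 1 without number 37 (7.48%) and 2 without number 50 (6.94%). Without each pup the count in females was 0 to 2. It was 2 without f-LF8 (5.19% of all genes) and 1 without f-LF1 (4.97%), f-LF2 (5.86%), f-WS1 (5%) or f-WS5 (4.94%). For the difference it was 1 without number 40 (0.953% of all genes, beside 2.5% at first) and 1 without number 49 (1.47%). Without each pup the count for the difference was 2 to 5, with 5 without m-LF2 (2.64% of all genes). It was 2 without any of m-LF1, m-LF3, m-WS4, m-WS6, f-LF1, f-LF2, f-LF4, f-LF5, f-LF8, f-WS2 and f-WS3, beside 1.81% to 2.83% of all genes. With the replicate number as a block, the counts were 4 in males, 2 in females and 3 for the difference, beside 6.02%, 5.24% and 2.17% of all genes. This block ended the male call of Adamts10 (0.20) and the difference of Col6a2 (0.40). The replicate numbers did not pair the pups. Deviations of pups with the same replicate number correlated at 0.03 on average, and 4 of 27 pups matched best with their own replicate number in another group. For pups of different groups with the same array number the average was 0.07, against -0.01 for other array numbers. The random block gave a correlation of 0.09 within an array number. The number of array names may mark litters, which would leave fewer independent units than pups. For Adamts3 in males the third brightest probe set reversed the sign (0.030), and no other called result changed sign. Of 16 single-gene results past p of 0.01, 15 kept their sign under every alternative run, all but Adamts3. Without m-LF6 and m-WS1 the counts were 5, 0 and 3 (beside 6.7%, 5.05% and 3.37% of all genes), but not of the same members. The male call of Col13a1 and the difference of Col6a2 were lost, and other members took their places. The cause of these shifts was not tested. Members dimmer than an intensity of 20 are close to background, and their differences may be understated.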
